A study of Mus musculus with 21 samples.

Results

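The 68 genes of the mouse histone gene clusters were examined in RNA-seq libraries of primary B cell precursors. They are every gene of the count table whose symbol begins with Hist1h, Hist2h, Hist3h or Hist4h, and they make up 68 of 24421 genes. By the type written in the symbol, 6 encode linker histone H1, 18 encode H2A, 19 encode H2B, 12 encode H3 and 13 encode H4. The HIST1 cluster holds 54 of them on chromosome 13, HIST2 holds 10 on chromosome 3, HIST3 holds 3 on chromosome 11, and Hist4h4 lies alone on chromosome 6. The study compared B cell precursors transformed by a leukemia-inducing oncogene with control cells and asked where their DNA is damaged and how this relates to transcription. All cells came from the bone marrow of 53BP1-/- C57BL/6 mice, which lack a DNA repair factor, and grew in culture with 10 ng/ml of interleukin-7. A retrovirus carried the fusion kinase BCR-ABL1 (vector BCR-ABL1p210 MIGR1), the transcription factor C-MYC (C-MYC MIGR1) or nothing (MIGR1, the empty vector, EV), and the labels place harvest at days 7 to 9 after transduction. There were 2 libraries for each of these 3 conditions, and the controls carry the loss of 53BP1 as well. The labels do not say whether the 2 libraries came from separate mice, so the p-values measure the spread between these libraries.

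Histone proteins package DNA: a pair of each of H2A, H2B, H3 and H4 forms the nucleosome core, and H1 binds the linker DNA between cores. The clustered genes are transcribed mainly in S phase, when newly replicated DNA must be packaged. Their mRNAs are unusual in that most carry no poly(A) tail and end instead just after a conserved stem-loop, which the stem-loop binding protein SLBP holds while the U7 snRNP directs the cut. These libraries were made from RNA enriched for poly(A) tails, so the values below describe the histone RNA that passed this step and not the whole pool of histone mRNA. In bulk RNA, fewer cells of a type and less RNA per cell cannot be told apart.

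The stem-loop is shown here because it is the 3′ end that poly(A) enrichment passes over. The 16-base element was searched for in the 200 bases after the coding sequence in GRCm38, and it was found in 65 of 68 members, 21 to 58 bases after the coding sequence (median 30). In each sequence the capitals mark the paired stem and the lower case letters the loop. The members carried 8 different sequences, given with the number of genes that hold each.
Hist1h1c, Hist3h2a, Hist3h2ba and others, 41 genes: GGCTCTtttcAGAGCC
Hist1h3c, Hist1h3e, Hist1h2bk and others, 9 genes: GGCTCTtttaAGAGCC
Hist1h4d, Hist1h4c, Hist1h4f and others, 8 genes: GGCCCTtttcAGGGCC
Hist1h4i and Hist2h4, 2 genes: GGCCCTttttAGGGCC
Hist1h4b and Hist1h4j, 2 genes: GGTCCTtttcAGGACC
Hist1h4a, 1 gene: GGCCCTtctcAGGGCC
Hist1h3g, 1 gene: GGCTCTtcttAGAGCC
Hist2h2ac, 1 gene: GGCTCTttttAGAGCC
The 4 sequences with a GGCCCT or GGTCCT stem occurred in the 13 H4 genes, and the members of the other types that carried the element had the GGCTCT stem. The element was not found in this window for Hist1h2an, Hist2h2be and Hist3h2bb-ps, which says only that these letters are not there. In RefSeq, the longest transcript ended within 10 bases of the stem-loop for 58 of 64 members. The other 6 were Hist1h2bc, Hist1h2be, Hist1h2bp, Hist1h2bq, Hist1h2br and Hist1h3e. In the GENCODE annotation, which gives longer ends, 16 members had a transcript that ran at least 500 bases past the element, among them Hist1h1c (840 bases past), Hist3h2a (1643) and Hist1h2bc (8246, an intron included). These 16 genes summed to a mean of 40.7 CPM (counts scaled to library size) in EV, 34.7 under C-MYC and 30.8 under BCR-ABL1, and BCR-ABL1 lay below EV (log2 ratio -0.40, and -0.22 without EV replicate 1). The other 52 overlapped between all groups, with log2 ratios to EV of 0.20 for BCR-ABL1 and 0.11 for C-MYC. Within the 16, Hist1h1c went from a mean of 16.4 CPM in EV to 9.47 under BCR-ABL1, and Hist3h2a from 10.3 to 6.58. Against EV, 4 of the 9 that passed a filter on low counts lay above 0 in BCR-ABL1 and 6 in C-MYC. Their median log2 fold changes were -0.19 and 0.46 in that order.

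Library totals ranged from 20687092 to 24095955 counts, and the histone genes took little of them. Summed over the members there were 2592 and 2196 counts in EV, 2481 and 2160 under C-MYC and 2278 and 2514 under BCR-ABL1. The median member had a mean of 12.7 counts per library, against 585 for the 12786 genes that passed the filter on low counts. No count at all was recorded in any library for 11 members, 44 passed the filter and were tested, and the other 13 had counts but too few. At least 100 counts in every library were reached by 4 members, and at least 50 by 7. The counts were also uneven, with 19.4% of all histone counts on Hist1h2af and 51.3% on 5 genes.

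Normalised levels are given as CPM, counts scaled to the size of the library after TMM normalisation. The summed histone CPM was 121 and 91.8 in EV, 114 and 97.0 under C-MYC and 108 and 105 under BCR-ABL1. The means were 107 ± 20.8 for EV, 106 ± 12.1 for C-MYC and 106 ± 2.5 for BCR-ABL1 (SD, n = 2), the ranges overlapped, and the log2 ratios to EV were 0.00 for BCR-ABL1 and -0.01 for C-MYC. The libraries of 1 condition thus differed more than the conditions did. With 2 libraries against 2, an exact permutation test cannot go below p = 0.333, so none was run on these sums. H2A genes held 34.8% of the summed CPM, H2B 24.6%, H1 17.0%, H4 13.8% and H3 9.82%.

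By type, H3 genes summed to 8.74 and 6.90 CPM in EV, 12.7 and 9.70 under C-MYC and 11.6 and 12.8 under BCR-ABL1, so that both oncogene groups lay above both EV libraries. The log2 ratio to EV was 0.64 for BCR-ABL1 and 0.52 for C-MYC, and 0.31 for C-MYC without C-MYC replicate 1. H4 genes summed to 14.9 and 9.20 CPM in EV, 19.0 and 15.2 under C-MYC and 15.9 and 13.7 under BCR-ABL1, which put C-MYC above EV (log2 ratio 0.51) while BCR-ABL1 overlapped it (0.30). Without EV replicate 1, these H4 ratios were 0.89 for C-MYC and 0.69 for BCR-ABL1, and without EV replicate 2 they were 0.20 and 0.00. H1 genes summed to 26.4 and 16.7 CPM in EV, 19.7 and 15.0 under C-MYC and 16.1 and 14.5 under BCR-ABL1. BCR-ABL1 lay below EV in H1 (log2 ratio -0.49, and -0.12 without EV replicate 1), and C-MYC overlapped EV (-0.31, and 0.06 without EV replicate 1). Hist1h1c alone had a mean of 16.4 CPM in EV and 9.47 under BCR-ABL1. Of 5 tested H1 genes, 3 lay above 0 in BCR-ABL1 against EV and 4 in C-MYC, with median log2 fold changes of 0.24 and 0.46. These counts were 1 and 4 without EV replicate 2, with medians of -0.19 and 0.12. Leaving out EV replicate 1 gave 3 and 4, with medians of 0.76 and 0.80. For H2A and H2B, both oncogene groups overlapped EV, with log2 ratios between -0.15 and 0.02.

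**Figure D1:**
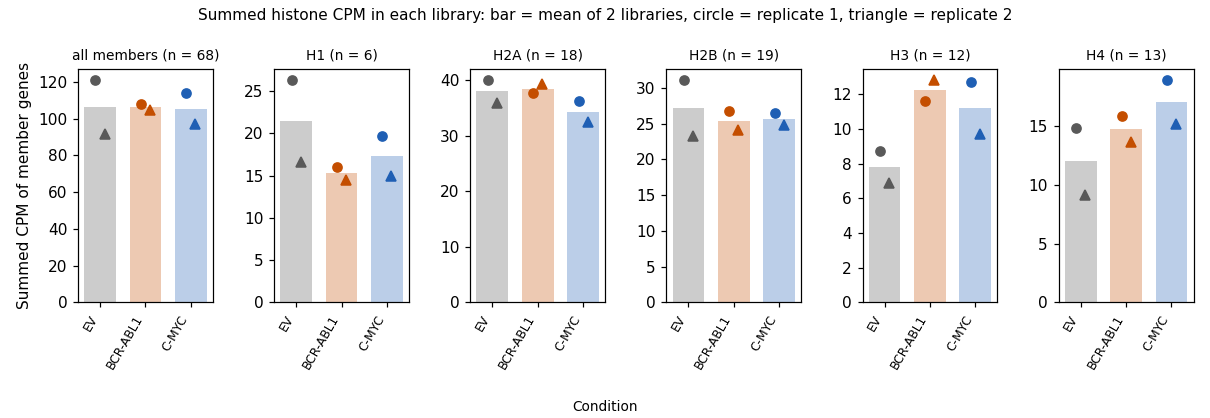
Summed TMM-normalised CPM of all 68 histone genes and of each type, by condition. Bars are means of 2 libraries, circles replicate 1 and triangles replicate 2; each panel has its own axis from 0. All members together overlap between conditions at 91.8 to 121 CPM, while the H3 panel shows the 4 oncogene libraries at 9.70 to 12.8 above EV at 6.90 and 8.74.

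Single genes were compared with edgeR's quasi-likelihood test across all 12786 genes, and a gene was called at a Benjamini-Hochberg adjusted p below 0.05. Both comparisons with EV use the same EV libraries. In BCR-ABL1 against EV, 0 of 44 tested members were called higher and 0 lower, while 5.08% of all tested genes were called higher and 12.0% lower. At an unadjusted p below 0.05, 5 members were higher and 3 lower, beside 12.8% and 18.4% of all genes. DESeq2 called 0 members higher and 1 lower, and limma on log2 FPKM called 0 in either direction. In C-MYC against EV, 0 members were called higher and 2 lower, against 18.6% and 24.5% of all genes. At an unadjusted p below 0.05, 3 were higher and 3 lower, beside 22.4% and 29.5%. DESeq2 called 0 members higher and 2 lower here, and limma 0 and 4. In BCR-ABL1 against C-MYC, 0 members were called in either direction by edgeR, DESeq2 and limma, and 0 reached an unadjusted p below 0.05, where 18.8% of all genes were higher and 18.5% lower. The adjusted shares over all genes in that comparison were 11.9% and 11.5%.

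Against EV, more of the tested members lay above 0 than below. The median log2 fold change of the 44 reached 0.31 for BCR-ABL1 and 0.36 for C-MYC, beside 0.00 and -0.08 over all genes, and 33 of 44 lay above 0 in each, beside 50.2% and 45.3% of all genes. Both values depended on which EV library was left out. Without EV replicate 1 the medians were 0.57 and 0.54, and without EV replicate 2 they were 0.08 and 0.13, each over the members that then passed the filter. In BCR-ABL1 against C-MYC the median was -0.07, with 19 of 44 above 0. Members whose libraries did not overlap between groups were counted as well. In BCR-ABL1, 15 of 44 members lay above both EV libraries and 6 below, beside 29.2% and 29.7% of all genes, and in C-MYC 14 lay above and 4 below, beside 31.5% and 39.1%. BCR-ABL1 lay above C-MYC for 8 members and below for 6, beside 35.4% and 34.5%.

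**Figure D2:**
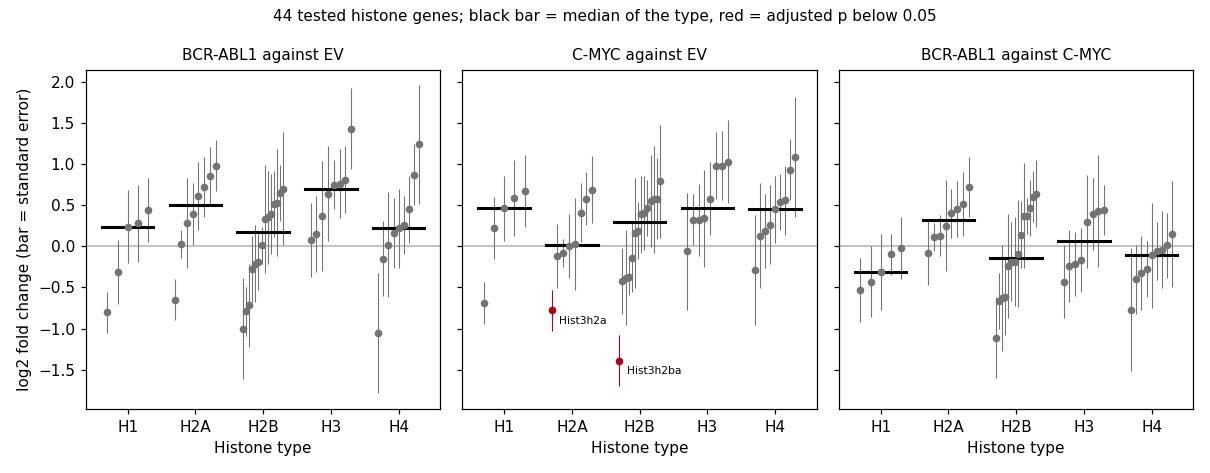
log2 fold changes of the 44 tested histone genes in 3 comparisons, by histone type; points are genes, bars standard errors, and black lines the median of a type. The red points are the 2 genes with an adjusted p below 0.05, Hist3h2a at -0.78 and Hist3h2ba at -1.39, both in C-MYC against EV.

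The 2 genes that fell in C-MYC are neighbours in the HIST3 cluster on chromosome 11. Hist3h2ba, an H2B gene at chr11:58948920-58949533, had 138 and 97 counts in EV, 44 and 44 under C-MYC and 66 and 71 under BCR-ABL1. All libraries with an oncogene lay below both EV libraries, and those of C-MYC lay lowest. It fell by 1.39 on the log2 scale in C-MYC (SE 0.31, edgeR adjusted p = 0.0090), and its value in BCR-ABL1 was -0.79 (SE 0.30, edgeR adjusted p = 0.118). Hist3h2a, an H2A gene at chr11:58954685-58956830, had 210 and 259 counts in EV, 151 and 113 under C-MYC and 118 and 182 under BCR-ABL1. Here too both EV libraries were the highest, and the oncogene groups overlapped each other. It fell by 0.78 in C-MYC (SE 0.25, edgeR adjusted p = 0.0371), and its value in BCR-ABL1 was -0.65 (SE 0.25, edgeR adjusted p = 0.121). The direct comparison of BCR-ABL1 with C-MYC gave 0.60 (SE 0.31, edgeR adjusted p = 0.204) for Hist3h2ba and 0.13 (SE 0.25, edgeR adjusted p = 0.742) for Hist3h2a. Neither call was held without C-MYC replicate 1 or without C-MYC replicate 2. The edgeR adjusted p for Hist3h2ba was then 0.0552 or 0.0555 at changes of -1.40 and -1.37. For Hist3h2a the change was -1.02 or -0.57 (edgeR adjusted p = 0.0557 or 0.196), and its call was also lost without EV replicate 2 or either BCR-ABL1 library. The third member of this cluster, the pseudogene Hist3h2bb-ps, had 1 to 3 counts in every library. Summed over the cluster, the CPM was 16.4 and 14.9 in EV, 9.10 and 7.10 under C-MYC and 8.82 and 10.6 under BCR-ABL1, with log2 ratios to EV of -0.69 for BCR-ABL1 and -0.95 for C-MYC. Exons of Hist3h2a share 708 bases with Trim17 on the same strand, and Trim17 had 8 to 23 counts per library. The part of this overlap in the Hist3h2a counts was not tested.

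The HIST1 and HIST2 clusters showed smaller differences. The 54 HIST1 genes summed to 93.8 and 68.4 CPM in EV, 96.8 and 82.1 under C-MYC and 89.3 and 84.2 under BCR-ABL1, with overlapping ranges and log2 ratios to EV of 0.10 for BCR-ABL1 and 0.14 for C-MYC. Without EV replicate 1 these were 0.34 and 0.39, and without EV replicate 2 they were -0.11 and -0.07. The 10 HIST2 genes summed to 10.7 and 8.32 CPM in EV, 8.04 and 7.59 under C-MYC and 9.72 and 9.51 under BCR-ABL1. C-MYC lay below both other groups in HIST2, with a log2 ratio of -0.28 to EV, which was -0.09 without EV replicate 1 and -0.45 without EV replicate 2. Among the tested genes the median log2 fold change in C-MYC was 0.43 for 38 HIST1 genes, -0.02 for 4 HIST2 genes and -1.08 for the 2 HIST3 genes.

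Hist1h1c dominated the H1 genes. It encodes a somatic linker histone and had 429 and 307 counts in EV, 234 and 213 under C-MYC and 219 and 206 under BCR-ABL1. The EV libraries were the 2 highest, and the oncogene groups overlapped. Its log2 fold change was -0.80 for BCR-ABL1 (SE 0.25, edgeR adjusted p = 0.0661) and -0.69 for C-MYC (SE 0.25, edgeR adjusted p = 0.0534). Neither passed the threshold, and both did without EV replicate 2, at -1.08 for BCR-ABL1 and -0.98 for C-MYC (edgeR adjusted p = 0.0065 and 0.0043). Without EV replicate 1 the values were -0.44 and -0.33 (edgeR adjusted p = 0.171 and 0.231). The other somatic H1 genes had far fewer counts. Hist1h1a had 42 and 25 counts in EV, 68 and 37 under C-MYC and 36 and 44 under BCR-ABL1. Hist1h1e had 40 and 29, 58 and 35, and 45 and 49 counts in the same order. Hist1h1d had 27 and 25, 35 and 24, and 17 and 25. Hist1h1a overlapped between all groups, Hist1h1e was higher in BCR-ABL1 than in EV and otherwise overlapped, and Hist1h1d was lowest in BCR-ABL1. Their log2 fold changes in C-MYC were 0.67 (SE 0.44), 0.46 (SE 0.39) and 0.22 (SE 0.38), and none passed. Hist1h1t, the linker histone of the testis, had 1 count in C-MYC replicate 2 and 0 elsewhere. Hist1h1c and the HIST3 genes were highest in the EV libraries, in which markers of myeloid, T and NK, and stromal cells were also higher (summed CPM given with the marker lists), and the part of those cells in these values was not tested.

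Among the H2A genes, Hist1h2af had the most counts of any member, 492 and 443 in EV, 459 and 407 under C-MYC and 439 and 522 under BCR-ABL1. These ranges overlapped, and the log2 fold changes of 0.03 for BCR-ABL1 and -0.08 for C-MYC (SE 0.17 for both) did not pass. Per kilobase of exon its mean CPM was 51.5, and the next member on that scale was Hist1h4i at 9.74. Only 20.3% of the 50-base windows of its exons occur once in GRCm38, so most of its sequence cannot be told from other places in the genome at that length. Hist1h2ae had 46 and 37 counts in EV, 51 and 71 under C-MYC and 81 and 83 under BCR-ABL1. The 3 groups did not overlap, with BCR-ABL1 highest and EV lowest. Its log2 fold change was 0.98 in BCR-ABL1 (SE 0.31, edgeR adjusted p = 0.0714), which passed the threshold without EV replicate 1 (1.24, edgeR adjusted p = 0.0432) and was 0.76 without EV replicate 2 (edgeR adjusted p = 0.157). Hist1h2ag had 20 and 29, 32 and 31, and 48 and 40 counts for EV, C-MYC and BCR-ABL1, and stood in the same order of groups, with 0.86 in BCR-ABL1 (SE 0.35, edgeR adjusted p = 0.138). Hist1h2ai was the least changed tested H2A gene in C-MYC, with 15 and 19 counts in EV, 15 and 18 in C-MYC, and 24 and 32 in BCR-ABL1. Of 8 tested H2A genes, 7 lay above 0 in BCR-ABL1 against EV and 5 in C-MYC, beside 50.2% and 45.3% of all genes. These counts were 7 and 5 without EV replicate 1, and 5 and 4 without EV replicate 2. Upper quartile scaling gave 6 and 4.

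The H2B genes spread in both directions. Hist2h2be, in which no stem-loop was found, had 182 and 164 counts in EV, 139 and 123 under C-MYC and 165 and 183 under BCR-ABL1. C-MYC lay below both other groups, with a log2 fold change of -0.37 against EV (SE 0.22, edgeR adjusted p = 0.212). On the FPKM values, limma gave -0.45 with an adjusted p of 0.0410. Hist1h2bc had 139 and 123 counts in EV, 166 and 187 under C-MYC and 145 and 80 under BCR-ABL1. C-MYC was highest (log2 fold change 0.46 against EV, SE 0.34, edgeR adjusted p = 0.306). BCR-ABL1 spanned the EV libraries for this gene. Hist1h2be had 40 and 31, 19 and 33, and 25 and 34 counts for EV, C-MYC and BCR-ABL1, with overlap between all groups, and it shares 816 exon bases with Hist1h1e on the same strand. Hist1h2bk changed least in C-MYC, at -0.14 (SE 0.42). Of 14 tested H2B genes, 8 lay above 0 in BCR-ABL1 and 9 in C-MYC. These counts were 10 and 9 without EV replicate 1, and 5 and 8 without EV replicate 2.

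All 8 tested H3 genes lay above 0 in BCR-ABL1 against EV and 7 in C-MYC, with medians of 0.69 and 0.46. Scaling by DESeq2's size factors or by the upper quartile left these counts at 8 and 7. Without EV replicate 1 they were 7 and 8, and without EV replicate 2 they were 7 and 6. None of the 8 passed the adjusted threshold in edgeR's test, DESeq2's or limma's, and 2 were higher at an unadjusted p below 0.05 in each comparison with EV, beside 12.8% of all genes for BCR-ABL1 and 22.4% for C-MYC. Hist1h3c, with the most H3 counts, had 71 and 59 in EV, 94 and 64 under C-MYC and 108 and 111 under BCR-ABL1. BCR-ABL1 was highest and C-MYC overlapped EV, with log2 fold changes of 0.75 for BCR-ABL1 (SE 0.30, edgeR adjusted p = 0.137) and 0.32 for C-MYC (SE 0.31, edgeR adjusted p = 0.438). Hist1h3h changed most, from 5 and 9 counts in EV to 12 and 16 under C-MYC and 15 and 23 under BCR-ABL1. At these counts its log2 fold change of 1.43 in BCR-ABL1 has a standard error of 0.49 (edgeR adjusted p = 0.0860). Only 6.1% of the 50-base windows of its exons occur once in GRCm38. Hist1h3f had 17 and 19 counts in EV, 44 and 25 under C-MYC and 32 and 31 under BCR-ABL1, all 4 oncogene libraries being above EV. Hist1h3a had 29 and 12, 36 and 15, and 26 and 39 counts for EV, C-MYC and BCR-ABL1, where the replicates of EV and of C-MYC lay far apart and all groups overlapped. Hist1h3e had 27 and 28, 31 and 36, and 16 and 43 counts in that order, and the BCR-ABL1 libraries lay on either side of EV. Hist2h3b, the least changed H3 gene, stood at -0.06 in C-MYC with 4 to 15 counts per library. On the FPKM scale the summed H3 level was still above EV in BCR-ABL1 (log2 ratio 0.45), but C-MYC overlapped EV (0.09).

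The H4 genes were led by Hist1h4i, with 165 and 94 counts in EV, 205 and 167 under C-MYC and 171 and 140 under BCR-ABL1. EV replicate 2 was the lowest library, and EV replicate 1 lay within the range of both oncogene groups. Its log2 fold change in C-MYC was 0.54 (SE 0.34, edgeR adjusted p = 0.239), with 1.11 without EV replicate 1 (edgeR adjusted p = 0.0184) and 0.13 without EV replicate 2 (edgeR adjusted p = 0.712). Hist1h4d had 47 and 27 counts in EV, 77 and 62 under C-MYC and 61 and 76 under BCR-ABL1, both oncogene groups being above EV. Its log2 fold change was 0.87 for BCR-ABL1 (SE 0.37, edgeR adjusted p = 0.155) and 0.93 for C-MYC (SE 0.37, edgeR adjusted p = 0.0751), and both passed without EV replicate 1, at 1.42 and 1.48 (edgeR adjusted p = 0.0298 and 0.0130). Without EV replicate 2 they were 0.46 and 0.52 (edgeR adjusted p = 0.365 and 0.229). Hist1h4c had the highest value of the tested H4 genes in C-MYC, 1.08 (SE 0.73), from 8 and 2 counts in EV and 14 and 7 in C-MYC, with overlap and without passing the threshold. Hist1h4b had 15 to 25 counts per library and Hist1h4a 15 to 29, and neither passed in any comparison. Hist1h4f was the least changed in C-MYC, at 0.13 (SE 0.64). Of 9 tested H4 genes, 7 lay above 0 in BCR-ABL1 and 8 in C-MYC. These counts were 7 and 8 without EV replicate 1, and 6 and 8 without EV replicate 2.

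**Figure D3:**
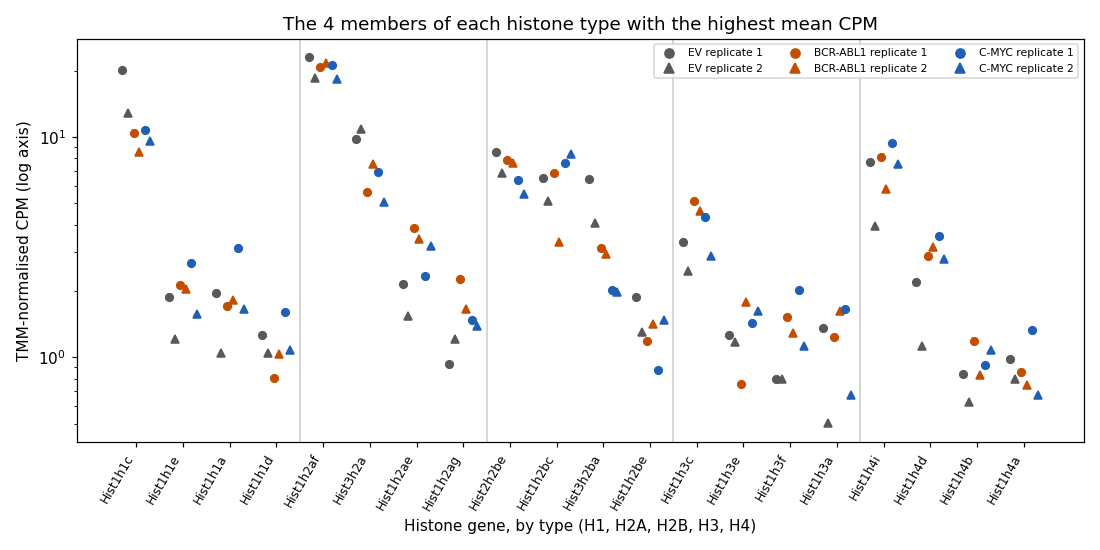
TMM-normalised CPM on a log axis of the 4 genes of each histone type with the highest mean, 1 point per library (circle replicate 1, triangle replicate 2; grey EV, orange BCR-ABL1, blue C-MYC). Hist3h2ba, Hist3h2a and Hist1h1c have both EV libraries on top, while Hist1h2ae, Hist1h2ag, Hist1h3f and Hist1h4d have both EV libraries at the bottom.

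Many members share sequence with other places in the genome, and how reads that map to several places were counted is not known. The 11 genes at 0 counts included 3 whose exons are mostly unique in GRCm38. Where the reads of a gene could be counted, a count of 0 allows an expected count of up to 3 per library. For genes without unique windows it sets no such limit. The 3 mostly unique genes are the testis genes Hist1h2aa and Hist1h2ba, and Hist2h3c1, whose exons share 1825 bases with the annotated gene Gm20634 on the same strand. Fewer than 10% of the 50-base windows were unique in 6 of the other 8. That was also so in 4 members with counts, Hist1h2ah, Hist1h2ai, Hist1h3h and Hist1h4n. The part of sequence identity in the counts was not tested. Hist1h2ao and Hist1h2ap have identical coding sequences and no unique window, and the same holds for Hist1h2bq and Hist1h2br. Hist2h2aa1 and Hist2h2aa2 also share 1 coding sequence, as do Hist1h4m at 0 counts and Hist1h4n at 4 to 16.

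The FPKM values, which the authors derived separately, gave another picture of the same genes. Of the 11 members at 0 counts, 7 had a mean FPKM above 1 and only Hist1h4m was at 0 in every library. Hist1h2ao had FPKM values of 516 and 439 in EV, 669 and 203 under C-MYC and 25.5 and 230 under BCR-ABL1. Hist1h2ap had 1.20 and 25.5 in EV, 2.03 and 433 under C-MYC and 922 and 420 under BCR-ABL1. Hist1h2ao was the higher of the pair in both EV libraries and C-MYC replicate 1, and Hist1h2ap in the other 3 libraries. Added together they gave 518 and 464 in EV, 671 and 636 under C-MYC and 947 and 650 under BCR-ABL1, with both oncogene groups above EV (log2 ratio 0.70 for BCR-ABL1 and 0.41 for C-MYC). This pair held 41.5% of the FPKM of all members and 0% of the counts. By FPKM, H2A genes took 89.9% of the histone total and filled the first 10 places. By CPM per kilobase they filled 5 of the first 10, and 3 genes were in both lists (Hist1h2af, Hist1h2ag and Hist1h2ae). The kilobases were those of GENCODE exons, and the transcript lengths behind the FPKM values may differ. The summed FPKM of all members was 1529 and 1189 in EV, 1680 and 1451 under C-MYC and 1919 and 1602 under BCR-ABL1, a log2 ratio of 0.37 for BCR-ABL1 without overlap. Without the identical pair the ratio was 0.15 and the ranges overlapped.

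**Figure D4:**
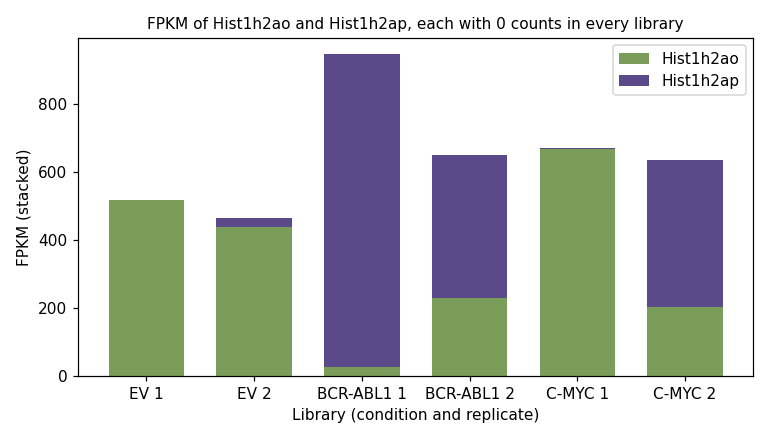
FPKM of Hist1h2ao and Hist1h2ap, stacked, in each library. Hist1h2ap ranges from 1.20 to 922 FPKM, and the sum of the pair from 464 to 947.

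**Figure D5:**
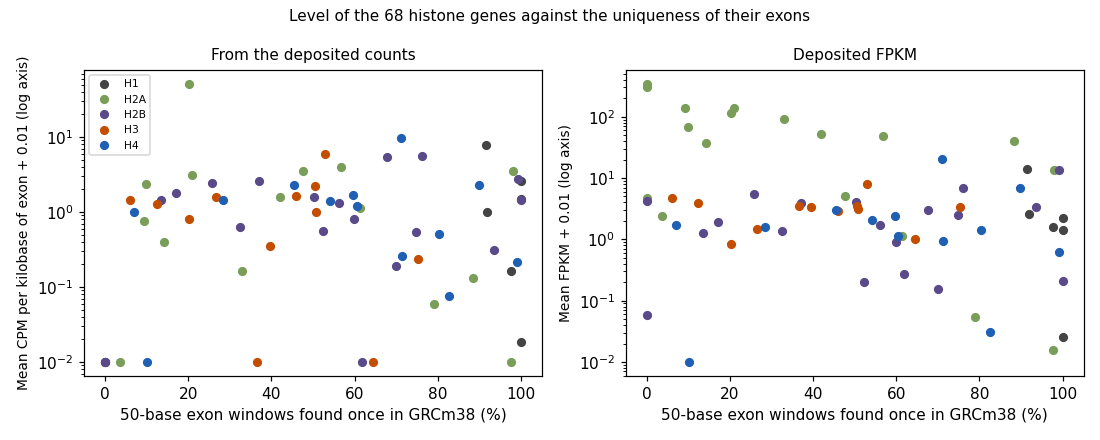
Mean level of each of the 68 genes against the percentage of its 50-base exon windows that occur once in GRCm38, from counts (left, CPM per kilobase) and from FPKM (right), with 0.01 added and log axes. Hist1h2ao and Hist1h2ap, with no unique window, stand at the top by FPKM, at 347 and 301, and at the floor by counts.

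The promoters were read because H2B genes are known for an octamer element that binds POU domain transcription factors. RefSeq promoters of GRCm38, from 250 bases before to 50 after the start, were found for 61 members. The letters ATTTGCAT occurred on either strand in 14 of them, 7 of 17 H2A and 7 of 16 H2B promoters, and in none of the 6 H1, 10 H3 or 12 H4 promoters. Among all 32851 promoters, 1.74% held it. The 14 promoters contained 11 distinct copies, because Hist1h2ah and Hist1h2bk, Hist1h2ae and Hist1h2bg, and Hist1h2aa and Hist1h2ba stand head to head around a shared one. Of these paired genes, Hist1h2ah had 2 to 11 counts per library and was not tested. The octamer is in capitals in these 30-base windows, which show the called gene Hist3h2a, the shared copies of the pairs with counts, and Hist1h2be.
Hist3h2a, octamer at chr11:58954566-58954573: gagccttcctaATTTGCATatgccttaccc
Hist1h2ae and Hist1h2bg, octamer at chr13:23571341-23571348: ttgagtcccttATTTGCATagaacctctat
Hist1h2ah and Hist1h2bk, octamer at chr13:22035791-22035798: catttcactttATTTGCATacgaagttcta
Hist1h2be, octamer at chr13:23586030-23586037: agtaagacttaATTTGCATaagactgccta
The windows are written in the direction of the octamer, which is reverse to H2A transcription and forward to H2B transcription in each case shown. Across the shared octamer, Hist1h2ae stood at 0.98 in BCR-ABL1 against EV, and Hist1h2bg, with 30 and 14 counts in EV, 26 and 31 under C-MYC and 12 and 15 under BCR-ABL1, was at -0.72 (SE 0.50, edgeR adjusted p = 0.379). The 10 tested genes with the octamer had a median of 0.04 for BCR-ABL1 and 0.21 for C-MYC, and the other 12 tested H2A and H2B genes had 0.37 and 0.18. These 12 include Hist1h2bc and Hist2h2be, whose promoters were not among the 61 read. The octamers found for Hist1h2ac and Hist2h2ac lie between those genes and Hist1h2bc and Hist2h2be. The 12 are therefore not a group shown to lack the octamer.

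Genes that make, carry or replace these histones gave a background measured mostly at far higher counts. Beside the numbers called below, 5.08% of all tested genes were higher and 12.0% lower in BCR-ABL1 against EV. In C-MYC against EV these shares were 18.6% and 24.5%. Of 25 S phase genes, 2 rose in BCR-ABL1 and 16 in C-MYC, with none falling and medians of 0.26 and 0.41 in that order. Among them were Cdc6 and Cdt1, which load the replicative helicase, at 0.61 (SE 0.11) and 0.63 (SE 0.18) in C-MYC. Of 27 genes for processing or transcription of histone mRNA, 2 rose and 1 fell in BCR-ABL1, and 8 rose and 2 fell in C-MYC. Slbp had 3587 and 3925 counts in EV, 4248 and 4396 under C-MYC and 3958 and 4800 under BCR-ABL1, with 0.24 in C-MYC (edgeR adjusted p = 0.0744). Npat, the coactivator of histone genes, had 2266 and 1322 counts in EV, 2418 and 2176 under C-MYC and 2467 and 2592 under BCR-ABL1, and was lowest in EV replicate 2, as the histone sum was. Snrpd3, a core snRNP protein, rose by 0.94 in C-MYC, and Zcchc6, an enzyme that adds uridines to RNA ends, fell by 1.11. Of 21 histone chaperone genes, 4 rose in BCR-ABL1 and 10 in C-MYC with none falling, led by the importin Ipo4 (1.19) and the chaperone Nap1l1 (0.92). Of 10 tested replication-independent histone variants, whose mRNAs mostly carry poly(A) tails, 0 were called in BCR-ABL1, and 2 rose and 2 fell in C-MYC. H3f3a, encoding a variant H3, fell by 0.70, and H2afv, encoding an H2A.Z protein, fell by 0.78. H2afx, whose product carries the damage mark γH2AX, had 10352 and 8947 counts in EV, 9525 and 6537 under C-MYC and 9104 and 9839 under BCR-ABL1, with changes of -0.03 for BCR-ABL1 and -0.23 for C-MYC that did not pass.

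Other RNAs and markers were measured in the same libraries. Of 55 tested RNAs that naturally lack a poly(A) tail, mostly small nucleolar RNAs, 1 rose in BCR-ABL1 and 13 in C-MYC. Their medians were 0.23 and 0.90 in that order. When BCR-ABL1 was compared with C-MYC, 0 of them were called lower, beside 11.5% of all genes. Only at an unadjusted p below 0.05 in edgeR's test were 7 lower, beside 18.5% of all genes. Snora44 was at 1.94 and Snord43 at 1.92 in C-MYC. The 45S ribosomal precursor Rn45s, also without a tail, had 5264 and 2395 CPM in EV, 3272 and 2247 under C-MYC and 2487 and 2476 under BCR-ABL1. EV replicate 1 and C-MYC replicate 1, the highest in Rn45s, were also the 2 libraries with the highest histone sum. The other 129 RNAs of this list did not share that order, with 52.1 and 71.2 CPM in EV, 105 and 118 under C-MYC and 74.6 and 77.8 under BCR-ABL1. In EV, 35 of 44 tested members were higher in EV replicate 1 than in EV replicate 2. Markers of other cells were higher in EV. The 7 myeloid markers summed to 744 and 950 CPM in EV and 119 to 309 in the other libraries, the 6 T and NK cell markers to 127 and 88.7 against 3.26 to 7.19, and the 4 stromal markers to 102 and 156 against 1.75 to 5.98. All 7 myeloid and all 6 T and NK markers fell in both comparisons with EV, and of the stromal markers 4 fell under C-MYC and 3 under BCR-ABL1. Of 5 erythroid markers, 4 were at 0 in every library. The 10 B cell precursor markers were present throughout, at 5331 to 8598 CPM. Against EV, 8 of them fell in C-MYC and 2 in BCR-ABL1. The part of carried-over tailless RNA or of these other cells in the histone values was not tested.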

How the data were processed

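RNA from 6 libraries (2 each of EV, BCR-ABL1 and C-MYC) was analysed, grouped by the labels. The authors deposited a table of raw counts per gene and a table of FPKM values (fragments scaled to transcript length and library size). The submitters' processing notes name STAR 2.5.0 and StringTie 1.3.0 and the GRCm38 build. The counting program, its strand setting and its treatment of reads that map to several places are not given in the sources used here. Library totals ranged from 20687092 to 24095955 counts, and no column of other samples was used (0).

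Genes with low counts were removed with filterByExpr, which left 12786 of 24421. The counts were scaled by TMM and fitted in 1 model over the 3 conditions with edgeR 4.0.16 in R 4.3.3 (glmQLFit and glmQLFTest, common biological coefficient of variation 0.151), with Benjamini-Hochberg adjustment over all tested genes and a threshold of 0.05. The test was checked on simulated data. DESeq2 1.42.0, limma 3.58.1 on log2(FPKM + 1) and on log2(FPKM + 0.1), no filter, other scalings, only the 4 libraries compared, a replicate block and leaving out each library were alternatives. Gene positions, stem-loops, exon overlaps and unique 50-base windows were read from GRCm38 with GENCODE and RefSeq annotation, using Python 3.11.15.

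Named were the 4 members of each type with the highest mean CPM, the members called, the most and the least changed of each type in C-MYC, up to 2 called genes of each other list, H2afx, Slbp and Npat, and members whose sequences are printed. Hist1h2bg was named for its shared octamer. The members and the gene lists were chosen with earlier results of these data known.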

Additional observations from a re-analysis of the deposited data

How the results depend on the processing

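The counts of called members moved by up to 3 genes between settings. For BCR-ABL1 against EV, where 0 members were called lower, 1 was lower without a filter on low counts and 1 by DESeq2's Wald test (Hist1h1c both times). Leaving out 1 library gave 0 to 2 called higher and 0 to 2 called lower, with a median log2 fold change from 0.08 to 0.57. The 2 higher were Hist1h2ae and Hist1h4d without EV replicate 1, and the 2 lower Hist1h1c and Hist3h2ba without EV replicate 2. For C-MYC against EV, where 2 were lower, 1 was lower with only the 4 libraries compared. Upper quartile scaling called 3 lower and the fit without a filter on low counts 3, each adding Hist1h1c. With limma, 4 were lower with FPKM + 1 and 4 with FPKM + 0.1, adding Hist1h1c and Hist2h2be. The median with FPKM + 1 was 0.11. Leaving out 1 library gave 0 to 2 lower and 0 to 3 higher, the 3 being Hist1h2bm, Hist1h4d and Hist1h4i without EV replicate 1, and a median from 0.13 to 0.54. For BCR-ABL1 against C-MYC, 1 was lower with only the 4 libraries compared (Hist1h2bg), and the median without 1 library lay between -0.18 and 0.20. The log2 ratio of the summed histone level was 0.37 for BCR-ABL1 against EV and 0.17 against C-MYC on FPKM. On CPM, the same ratios ranged from -0.19 to 0.21 and from -0.10 to 0.13 when 1 library was left out. Without Hist1h2ao and Hist1h2ap, an alternative chosen after seeing the data, the FPKM ratios were 0.15, 0.07 for C-MYC against EV and 0.08. The cause of these moves was not tested.

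The libraries share replicate numbers across conditions. Same-numbered libraries deviated together with r of 0.20 to 0.27 over 12786 genes, and with 2 pairs and no label this does not pair them. With a replicate block, 1 member was called higher and 1 lower in BCR-ABL1 against EV (Hist1h2ae and Hist1h1c), and 1 higher and 3 lower in C-MYC against EV (Hist1h4d, and Hist1h1c beside the HIST3 pair).

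Over all genes, 650 were called higher in BCR-ABL1 against EV, 402 with only those 4 libraries, 1221 with the block, 340 and 364 by limma, and 118 to 1000 without 1 library. Lower were 1530, and 547 to 1799 without 1 library. In C-MYC against EV, 2383 were higher and 3132 lower, with 1431 to 2701 and 1898 to 3376 without 1 library. In BCR-ABL1 against C-MYC, 1523 were higher (442 to 2284 without 1 library) and 1468 lower (2271 with only those 4 libraries, 950 by limma with FPKM + 1, and 176 to 2235 without 1 library). Leaving out libraries from the sums of clusters and of smaller sets of members was also chosen after seeing the data, and those values stand beside the sums.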

Other observations

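Other promoter letters were counted in the same 61 promoters. CCAAT was found in 85.3% of them, beside 37.4% of all 32851 promoters, and it was in every H1, H2A, H2B and H3 promoter but in 3 of 12 H4 promoters. TATAAA was found in 57.4%, beside 13.6%. The E box CACGTG, which MYC is known to bind, was in 0 of 61, beside 7.15% of all promoters, which says only that these letters are not in this window. Both strands were read, and promoters of H2A and H2B genes that stand head to head share sequence.

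The 8 members with the most counts held 64.0% of all histone counts. They summed to a mean of 75.0 CPM in EV, 63.9 under C-MYC and 65.0 under BCR-ABL1, with overlapping ranges. The other 60 summed to 31.5 ± 6.11 CPM for EV, 41.6 ± 5.41 for C-MYC and 41.2 ± 1.55 for BCR-ABL1 (SD, n = 2), and both oncogene groups lay above EV, with log2 ratios of 0.40 for C-MYC and 0.39 for BCR-ABL1. Without EV replicate 1 these were 0.62 and 0.60, without EV replicate 2 they were 0.22 and 0.20, and without C-MYC replicate 1 the former was 0.26.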
